A study of Homo sapiens with 8 samples.

Results

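The 43 genes described here encode the liver-made factors of blood coagulation and of the complement system together with their main inhibitors and membrane regulators. They were chosen by name, with no threshold on their values, out of 17341 genes that held an assigned transcript in 1 or more of 8 RNA-seq libraries. HepG2 cells, a human hepatocellular carcinoma (HCC) line, and cells labelled Hep3B, also an HCC line, were left untreated or were treated for 48 h. The agents were sodium pentaborate pentahydrate (NaB), curcumin (Cur) and piperine (Pip). HepG2 cells received 2500 µM NaB, or 30 µM Cur with 6 µM Pip, or all 3 agents at these doses, and the cells labelled Hep3B received 1700 µM NaB with the same doses of Cur and Pip. All groups carry the label wild type. According to the methods, the stocks of Cur and Pip were made in dimethyl sulfoxide (DMSO), that of NaB in medium, and control cells were untreated. No vehicle control is named for the libraries, so DMSO cannot be told apart from Cur and Pip. Each condition has 1 library per line, Cur and Pip were never given apart, and the methods isolated RNA in triplicate without stating whether the isolates were pooled. There is thus no replicate check of any difference within a line. The errors given below come from 95% intervals that Cufflinks, the program that assembled the transcripts, places around each transcript in 1 library. They hold no spread between cultures.

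Coagulation is a chain of serine proteases that circulate as inactive precursors. Each one activates the next until thrombin cuts fibrinogen, and antithrombin, the protein C system and other inhibitors stop the chain. Complement is a related chain in blood: classical, lectin and alternative routes meet at C3, whose cleavage leads to the terminal pore of C5 to C9, and regulators in plasma and on cell membranes protect host cells. Hepatocytes secrete most of these plasma proteins, under the control of transcription factors such as HNF4A and CEBPA, and lose part of this output when they lose their differentiated state.

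Levels are FPKM, the fragments of a transcript scaled to its length and to the fragments of the library, summed over the transcripts assigned to a gene. In HepG2, 37, 35, 33 and 35 members held an assigned transcript in the control, NaB, Cur and Pip, and combination libraries. In the libraries labelled Hep3B the numbers were 20, 13, 17 and 17. Of the 43 members, 37 reached 1 FPKM in 1 or more HepG2 libraries and entered the comparisons, which span 13475 genes. The other 6 were F9, KLKB1, C4A and C4B, which had no assigned transcript in HepG2, and F13B and PLG, which stayed under 1 FPKM in HepG2 and were not listed in either library with Cur and Pip. F9, coagulation factor IX, had no assigned transcript in any of the 8 libraries. A gene without an assigned transcript was not assembled in that library, which differs from an absence of RNA.

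The label of each line was checked against 19 hepatocyte markers. In HepG2, 16, 18, 19 and 18 of them reached 1 FPKM in the control, NaB, Cur and Pip, and combination libraries, with summed levels of 13846, 16282, 10816 and 7477 FPKM. ALB (albumin), AFP (alpha-fetoprotein) and APOA2 had no assigned transcript in the HepG2 control, and ALB stood at 7518, 2998 and 2989 FPKM in the treated HepG2 libraries. Over the 16 markers listed in every HepG2 library the sums were 13846, 7947, 6698 and 3861 FPKM, so that with NaB the sum lay below the control rather than above it. In the libraries labelled Hep3B, 3, 1, 2 and 1 markers reached 1 FPKM and the sums were 7.70, 2.00, 5.96 and 5.44 FPKM. The keratin KRT7, a marker of other epithelium, stood there at 565, 687, 352 and 359 FPKM. The fibroblast markers DCN and LUM reached 119.6 and 179 FPKM in their control. Most other markers of these lists were low or absent in that control. KRT4 stood at 15.2, COL1A1 at 3.99, COL3A1 at 1.20, PDGFRB at 0.970 and TP63 at 0.657 FPKM. KRT5, KRT13, KRT20, CDX2, VIL1, COL1A2 and THY1 had no assigned transcript there. These data therefore go against a hepatocyte-like state of the second line, which is called by its label throughout. In bulk RNA, fewer cells of a type and less RNA per cell cannot be told apart.

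The sequence upstream of 4 members is shown. F10 and PROZ are neighbours that were both lower with the combination than in the control, and C4BPA and CD55 are neighbours of which the first was lower and the other higher, as described below. For 34 of the 43 members RefSeq (assembly GRCh38.p14) gave a promoter window from 250 bases before to 50 bases after the start of the gene. The window of F10 lies at chr13:113122549-113122848, that of PROZ at chr13:113158398-113158697, that of C4BPA at chr1:207103983-207104282 and that of CD55 at chr1:207321428-207321727, all on the plus strand, and capitals mark a match to the letters of an HNF4 repeat (CAAAGTCCA) on either strand.
F10: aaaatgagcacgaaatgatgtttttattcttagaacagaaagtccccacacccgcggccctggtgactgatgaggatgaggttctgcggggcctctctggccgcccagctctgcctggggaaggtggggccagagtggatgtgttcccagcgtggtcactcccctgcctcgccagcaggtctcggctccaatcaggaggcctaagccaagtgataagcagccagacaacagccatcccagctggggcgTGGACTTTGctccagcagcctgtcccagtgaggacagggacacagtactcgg
PROZ: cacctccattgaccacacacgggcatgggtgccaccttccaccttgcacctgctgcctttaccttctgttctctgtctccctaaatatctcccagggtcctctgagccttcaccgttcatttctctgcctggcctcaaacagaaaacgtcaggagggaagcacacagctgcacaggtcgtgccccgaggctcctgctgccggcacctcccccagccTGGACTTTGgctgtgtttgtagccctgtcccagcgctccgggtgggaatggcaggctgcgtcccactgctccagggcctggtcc
C4BPA: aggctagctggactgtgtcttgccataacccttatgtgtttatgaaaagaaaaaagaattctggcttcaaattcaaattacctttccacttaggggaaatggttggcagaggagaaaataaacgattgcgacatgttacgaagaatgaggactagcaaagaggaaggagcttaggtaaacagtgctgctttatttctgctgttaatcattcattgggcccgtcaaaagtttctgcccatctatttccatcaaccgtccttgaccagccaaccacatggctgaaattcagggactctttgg
CD55: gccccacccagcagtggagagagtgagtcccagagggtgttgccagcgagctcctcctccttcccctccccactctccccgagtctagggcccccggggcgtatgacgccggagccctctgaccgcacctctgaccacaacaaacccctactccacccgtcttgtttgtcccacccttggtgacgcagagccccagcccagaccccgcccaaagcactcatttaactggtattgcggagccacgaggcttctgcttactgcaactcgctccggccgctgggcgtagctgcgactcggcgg
The HNF4 letters began 2 bases before the start of F10 and 34 bases before that of PROZ, both on the opposite strand, and the C4BPA and CD55 windows did not hold them. F10 and PROZ were the 2 members with these letters, 5.88% of the members that matched, against 0.359% of all 27305 promoters. The C/EBP letters TTGCNNAA were in 6 members (17.6%) against 10.6% of promoters, CCAAT in 13 (38.2%) against 35.7%, and TATAAA in 3 (8.82%) against 3264 of the 27305. The motif letters did not overlap one another in the 4 windows shown. A match is a description of these letters and does not show that a factor binds there.

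**Figure D1:**
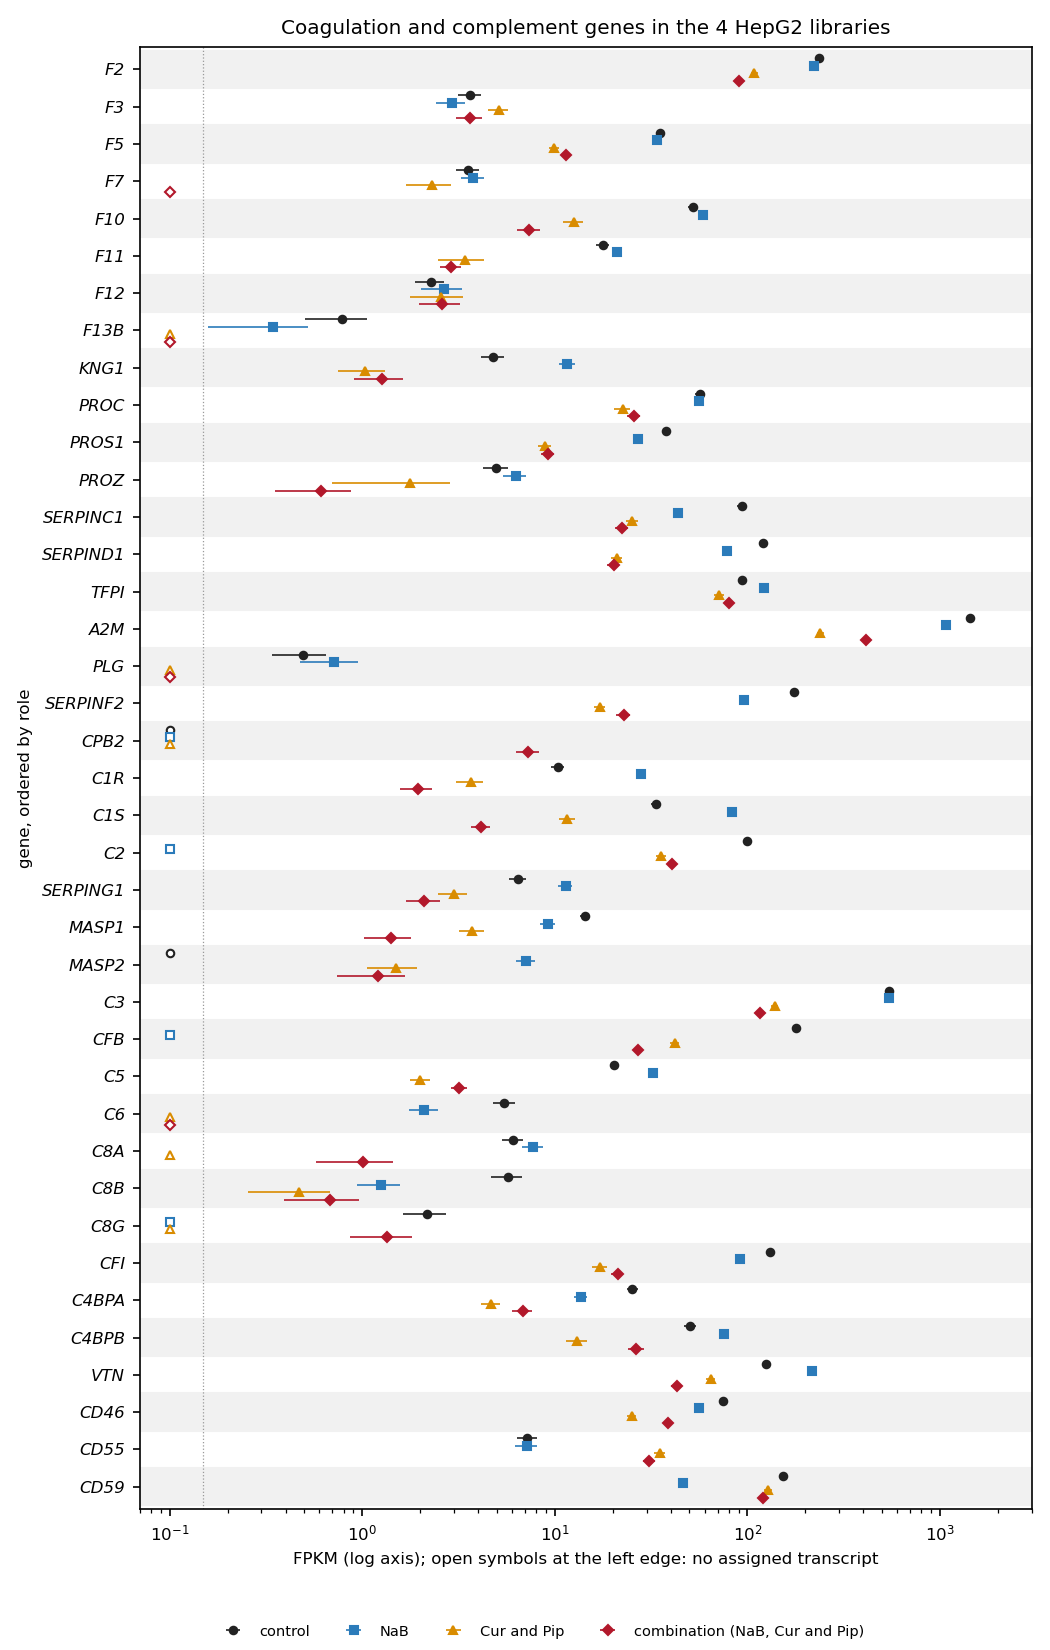
FPKM (log axis) of the 39 members with an assigned transcript in 1 or more HepG2 libraries, ordered by role, in control, NaB, Cur and Pip, and combination cells. Bars are 95% Cufflinks intervals of 1 library and open symbols mark a library with no assigned transcript. For most genes the Cur and Pip and the combination symbols lie to the left of the control symbol, and CD55 lies to the right.

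Levels in untreated HepG2 cells ranged widely, with 35 of the 43 members at 1 FPKM or more. A2M, the broad protease inhibitor alpha-2-macroglobulin, stood at 1436 FPKM in the control, C3 at 541, F2 (prothrombin) at 234, CFB at 178 and SERPINF2 at 175. Summed over all 43, the level was 3860 FPKM in the control, 3091 with NaB, 1082 with Cur and Pip and 1208 with the combination. As a share of the summed FPKM of the measured genes this was 0.984%, 0.742%, 0.303% and 0.333%, and without A2M 0.618%, 0.484%, 0.236% and 0.220%.

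The comparison of Cur and Pip against control in HepG2 asks how these genes differed after Cur and Pip, with their DMSO and without NaB. A difference is called past the threshold where log2 of the ratio of FPKM + 1 exceeds 1.5 in size, the fold limit of the study methods; this scale understates the change of low genes. Of 37 measured members, 21 were lower past the threshold and 1 was higher, where 10.2% of the 13475 genes were lower and 9.01% higher. The median log2 difference of the members was -1.67, against 0.00 over all genes, and 32 members lay below 0. Of the 32 members listed in both libraries 18 were lower and 1 higher (7.27% and 5.16% of all such genes). Each of these 19 had intervals in the 2 libraries that did not overlap. The same held for the members past the threshold in every comparison. No share over all genes is given for it, so it is not a trait of these members. The share of transcripts with 1 exon was 16.4% in the control library and 34.1% in the Cur and Pip library, and 81.0% and 66.5% of the 588 annotated introns of the members were assembled; the part of this difference in the result was not tested. Likewise, of 16 hepatocyte markers listed in both libraries 5 were lower past the threshold and 0 higher, with a median of -1.32, whose part was not tested.

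Among the procoagulant factors 8 were measured, and 4 were lower past the threshold after Cur and Pip. F10, the factor X that converts prothrombin to thrombin, stood at 52.4 FPKM in the control, 58.5 with NaB, 12.5 with Cur and Pip and 7.37 with the combination. F11, factor XI of the contact route, stood at 17.8, 21.0, 3.4 and 2.90 FPKM in the same order. F5, the cofactor of factor X, stood at 35.3, 33.8, 9.89 and 11.5 FPKM. For all 3 genes the control and NaB levels were high and both libraries with Cur and Pip were low, with log2 differences of -1.98 (F10), -2.09 (F11) and -1.73 (F5) for Cur and Pip against control. KNG1, the kininogen of the contact system, stood at 4.79, 11.6, 1.03 and 1.27 FPKM. The NaB library was thus above the control and the other 2 below it (-1.51 with Cur and Pip). When the depth of each transcript was apportioned over the annotated exons it covers, KNG1 stood at 2.26, 5.88, 0.395 and 0.477 FPKM. Its difference with Cur and Pip then lay inside the threshold. Prothrombin itself moved less: F2 stood at 234, 220.4, 109 and 90.1 FPKM, a log2 difference of -1.10 with Cur and Pip, inside the threshold. F7, the factor VII that acts with tissue factor, stood at 3.56, 3.77 and 2.29 FPKM and had no assigned transcript in the combination library. The 2 members outside this pattern were F3, tissue factor, the membrane starter of clotting, at 3.63, 2.93, 5.11 and 3.61 FPKM, and F12, the contact factor XII, at 2.27, 2.66, 2.55 and 2.60 FPKM. Their differences after Cur and Pip were 0.40 and 0.12.

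Of 7 anticoagulants and protease inhibitors 4 were lower past the threshold after Cur and Pip, with a median of -1.85. SERPIND1, heparin cofactor II, stood at 120.1 FPKM in the control, 78.7 with NaB, 20.9 with Cur and Pip and 20.2 with the combination. SERPINC1, antithrombin, stood at 93.2, 43.6, 25.1 and 22.2 FPKM. A2M stood at 1436, 1075, 239 and 412 FPKM. In all 3 the NaB library lay between the control and the libraries with Cur and Pip, which differed from the control by -2.46, -1.85 and -2.58 on the log2 scale. PROS1, the protein S that assists activated protein C, stood at 37.6, 27.1, 8.85 and 9.21 FPKM (-1.97). PROC, the protein C precursor, stood at 56.6, 56.0, 22.5 and 25.7 FPKM, and its difference of -1.29 stayed inside the threshold. PROZ, protein Z, a cofactor for the inhibition of factor X, stood at 4.97, 6.26, 1.78 and 0.614 FPKM. It passed the threshold only with the combination (-1.10 with Cur and Pip, -1.89 with the combination). In the Cur and Pip library, however, its transcript covered 29.2% of the annotated exons and held 0 of 7 introns. With depth apportioned over annotated exons PROZ stood at 4.83, 5.13, 0.520 and 0.519 FPKM, so that the Cur and Pip and combination libraries were level. TFPI, which blocks the tissue factor complex, was nearest to level, at 94.1, 123, 71.1 and 79.9 FPKM. In fibrinolysis, SERPINF2, the inhibitor of plasmin, stood at 175, 95.5, 17.1 and 22.8 FPKM. Its 10.2-fold lower level with Cur and Pip than in the control, -3.28 on the log2 scale, was the most negative difference among the members listed in both libraries of that comparison.

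**Figure D2:**
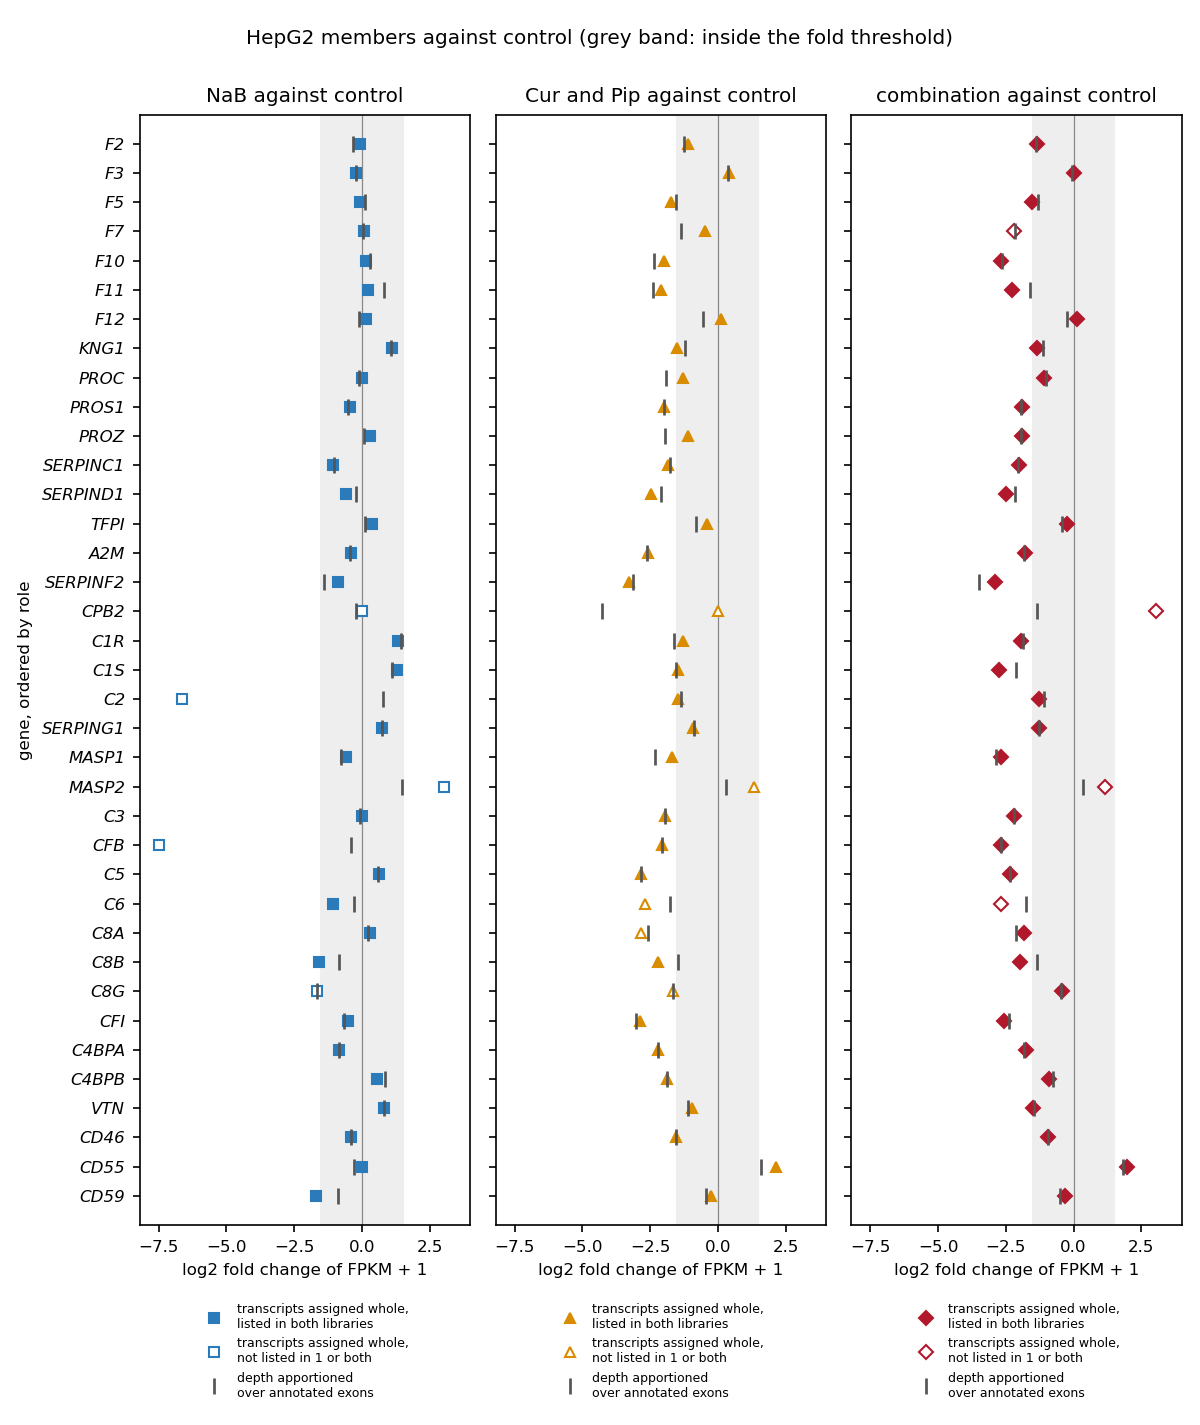
Log2 difference of FPKM + 1 against the control for the measured members of HepG2, ordered by role, in 3 panels for NaB, Cur and Pip, and the combination. The grey band spans differences within 1.5 of 0. With NaB most points lie in the band, and with Cur and Pip or the combination most lie in or to the left of it, with CD55 to the right.

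In the complement system the terminal members were the group with the lowest median after Cur and Pip, -2.69 over 5 measured genes, all 5 past the threshold. Only C5 and C8B of these were listed in both libraries, so the count rests in part on genes without an assigned transcript. C5, the precursor that starts the terminal pore, stood at 20.4 FPKM in the control, 32.3 with NaB, 2.01 with Cur and Pip and 3.19 with the combination, 10.2-fold lower with Cur and Pip than in the control. The pore components C6 and C8A, at 5.47 and 6.09 FPKM in the control, had no assigned transcript with Cur and Pip. C8B, the beta chain of C8, stood at 5.70, 1.25, 0.470 and 0.678 FPKM, and with depth apportioned over annotated exons its -2.19 with Cur and Pip became -1.47. C8G, its gamma chain, stood at 2.18 FPKM in the control and 1.34 in the combination library and had no assigned transcript in the other 2. The summed level of the terminal members was 39.8, 43.3, 2.48 and 6.23 FPKM.

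C3, on which all routes meet, stood at 541 FPKM in the control, 541 with NaB, 139 with Cur and Pip and 117 with the combination. Its intervals were 519 to 564 in the control and 133 to 145 with Cur and Pip, and the log2 difference was -1.96. CFB, the factor B of the alternative route, stood at 178 FPKM in the control, 41.8 with Cur and Pip and 27.1 with the combination (-2.06 and -2.67). Both genes were thus lower past the threshold with Cur and Pip and with the combination. MASP1, a protease of the lectin route, stood at 14.3, 9.21, 3.73 and 1.40 FPKM (-1.70 with Cur and Pip, -2.67 with the combination). MASP2, the other lectin protease, had no assigned transcript in the control and stood at 7.07, 1.5 and 1.21 FPKM after treatment, where its transcripts covered at most 36.0% of the annotated exons.

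The proteases of the classical C1 complex differed most between NaB and the combination. C1R stood at 10.4 FPKM (9.51 to 11.2) in the control, 27.9 (26.3 to 29.5) with NaB, 3.67 (3.09 to 4.25) with Cur and Pip and 1.94 (1.57 to 2.31) with the combination. C1S stood at 33.7 FPKM (31.6 to 35.7), 83.1 (78.9 to 87.2), 11.6 (10.5 to 12.7) and 4.14 (3.66 to 4.63). Their 4 intervals did not overlap in either gene: NaB was above the control and the combination was the lowest. Log2 differences from the control were 1.35 and 1.28 with NaB, -1.28 and -1.46 with Cur and Pip, and -1.95 and -2.75 with the combination, of which only the combination passed the threshold. SERPING1, the C1 inhibitor, followed the same order at 6.46, 11.4, 2.99 and 2.10 FPKM, with no difference from the control past the threshold. C2, the next protease of this route, stood at 99.7 FPKM in the control, 35.6 with Cur and Pip and 40.8 with the combination.

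C1R and C1S are neighbours on chromosome 12, 9.18 kb apart, and other members also lie side by side. F7, F10 and PROZ follow each other on chromosome 13 with gaps of 2.11 and 9.12 kb, C8A and C8B lie 10.98 kb apart on chromosome 1, and KLKB1 and F11 lie 7.72 kb apart on chromosome 4. C1R and C1S, like C8A and C8B, lie on opposite strands. The other neighbours named here share a strand, and there a transcript may run across 2 genes, so their values are not fully separate measurements.

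C4A and C4B, the fourth component of the classical route, had no assigned transcript in HepG2, and each held 1 in a single library labelled Hep3B, C4B in the control at 0.967 FPKM and C4A in the combination at 0.509 FPKM. The canonical transcripts of both, 5427 bases in GENCODE 44, differ at 13 positions (99.8% identity), and 83.7% of their windows of 150 bases are identical, so reads may be shared between the copies and both values are uncertain. A stretch of exon 26 of 41 that holds 5 of the differences, in capitals, is shown to let the copies be told apart; C4A lies at chr6:31996076-31996105 and C4B at chr6:32028814-32028843 in GRCh38, on the plus strand.
C4A: caggaccCctGtccagtgTtaGaCaggagc
C4B: caggaccTctCtccagtgAtaCaTaggagc

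Of 4 regulators in plasma 3 were lower past the threshold with Cur and Pip. CFI, the factor I that cuts C3b and C4b, stood at 130.1 FPKM in the control, 91.3 with NaB, 17.1 with Cur and Pip and 21.2 with the combination (-2.86 and -2.57). C4BPA and C4BPB, the alpha and beta chains of the C4b-binding protein, stood at 25.3, 13.6, 4.67 and 6.80 FPKM and at 50.4, 75.3, 13.03 and 26.4 FPKM. The alpha chain was lower in every treated library, whereas the beta chain was above the control with NaB and below it in the other 2. VTN, vitronectin, which blocks the terminal pore, stood at 124, 217, 64.5 and 42.9 FPKM and passed the threshold only with the combination (-1.51).

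The membrane regulators did not move together. CD55, which speeds the decay of the C3 convertases, stood at 7.19 FPKM (6.32 to 8.06) in the control, 7.16 (6.22 to 8.10) with NaB, 35.0 (32.7 to 37.3) with Cur and Pip and 30.8 (28.5 to 33.1) with the combination. It was the only measured member higher past the threshold with Cur and Pip (2.14, 4.87-fold), and the control and NaB intervals overlapped. The difference with the combination, 1.96, was 1.39 when only the largest transcript of CD55 was read. CD46, the membrane cofactor of factor I, stood at 74.7, 56.4, 25.0 and 38.7 FPKM (-1.54 with Cur and Pip). CD59, which blocks the terminal pore on the membrane, stood at 152, 46.3, 128 and 121 FPKM, low in the NaB library alone. When the depth of each transcript was apportioned over the annotated exons of the genes it covers, CD59 stood at 34.1, 18.1, 25.1 and 23.5 FPKM and its NaB difference went from -1.69 to -0.88.

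**Figure D3:**
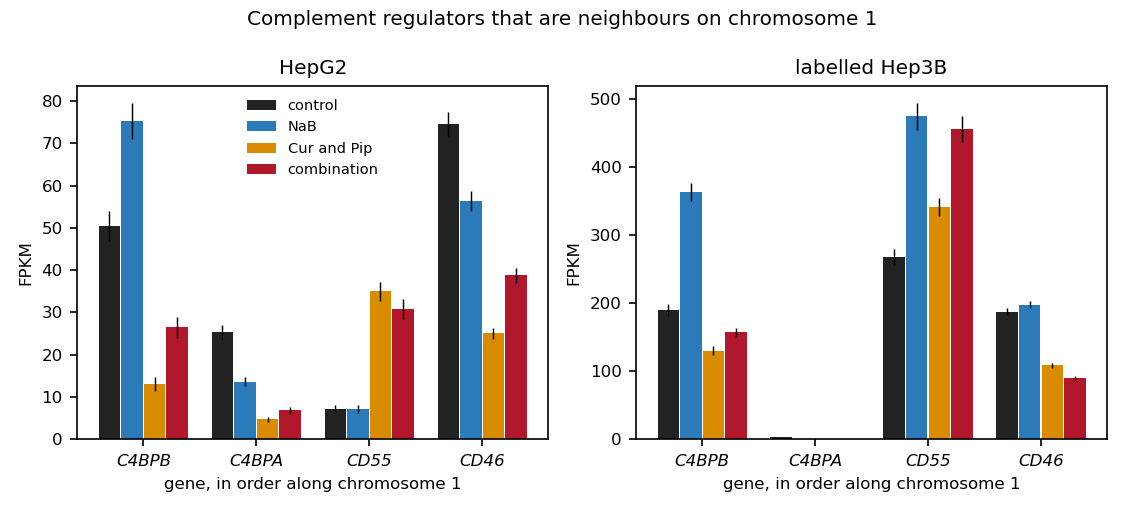
FPKM of C4BPB, C4BPA, CD55 and CD46, 4 complement regulators in their order along chromosome 1, with HepG2 to the left and the line labelled Hep3B to the right on another scale. Bars are 1 library each with 95% Cufflinks intervals. In HepG2 only CD55 is higher with Cur and Pip and with the combination than in the control.

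C4BPB and C4BPA lie 4.24 kb apart on chromosome 1, CD55 follows 177 kb further and CD46 another 365 kb further. The plot of the 4 regulators shows that the higher level of CD55 with Cur and Pip was not shared by C4BPA, C4BPB or CD46, although the 4 genes lie on 1 stretch of the chromosome and on the same strand.

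NaB alone against control in HepG2 gave few members past the threshold. The count was 5 lower and 1 higher of 37, where 5.10% and 4.76% of all genes were lower and higher, and the median log2 difference was -0.01. The 5 were C2, CFB, C8B, C8G and CD59, and the 1 higher was MASP2. Only C8B and CD59 were listed in both libraries (2 of 32 lower, 0 higher, where 1.79% and 1.62% of such genes were). In the NaB library the exons of C2 and CFB, whose annotated genes overlap on chromosome 6, lay in 2 transcripts assigned to the gene model ENSG00000244255 at a summed 139.9 FPKM. With apportioned depth C2 was at 139.9 FPKM with NaB against 81.9 in the control (0.77) and CFB at 133 against 178 (-0.42), and 1 member, C8G, was lower past the threshold and 0 were higher, where 3.80% and 4.21% of genes were. Inside the threshold the members with NaB spread both ways, from -1.08 for SERPINC1 to 1.35 for C1R.

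The combination against control answers what all 3 agents gave together. Of 37 measured members, 22 were lower past the threshold and 2 higher, where 11.5% and 8.07% of all genes were, and the median was -1.80. Among 33 members listed in both libraries 20 were lower and 1, CD55, was higher (7.27% and 4.67% of such genes). The intervals of each of these 21 did not overlap between the libraries, for which no share over all genes is given. Of these 20 the most negative were SERPINF2 (-2.89), C1S (-2.75), MASP1, CFB and F10 (each -2.67), CFI (-2.57) and SERPIND1 (-2.51). By role, 4 of 8 procoagulant factors, 5 of 7 anticoagulants and inhibitors, 2 of 4 classical, both C3 and CFB, 4 of 5 terminal and 3 of 4 plasma regulator members were lower. In the combination library 32.2% of transcripts had 1 exon and 70.7% of the members' introns were assembled, and of 16 hepatocyte markers 7 were lower past the threshold and 0 higher (median -1.47), whose part in the result was not tested. The second higher member, CPB2, a carboxypeptidase that slows fibrinolysis, had an assigned transcript in the combination library only, at 7.29 FPKM. Its exons lay in 3 transcripts assigned to the neighbouring gene ZC3H13 in the control (9.63 FPKM) and in 1 with NaB (15.5 FPKM). With apportioned depth CPB2 stood at 18.3, 15.5 and 6.53 FPKM in the control, NaB and combination libraries and was at 0 with Cur and Pip. The combination then differed from the control by -1.36, so its direction turned with the assignment.

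Cur and Pip were added to cells without NaB and to cells with NaB, and these 2 contrasts share no library. The question is whether the same members moved in both. The combination against NaB had 18 members lower and 4 higher past the threshold (10.6% and 7.58% of all genes), and 16 lower and 1 higher among 31 listed in both libraries (6.11% and 4.01% of such genes). C1S (-4.03), C1R (-3.30), C5 (-2.99), F10 (-2.83), F11 (-2.50), KNG1 (-2.48) and VTN (-2.31) were the most negative. Of the 29 members that every HepG2 library listed, 25 were lower in both contrasts and 2, CD55 and F3, higher in both, where 36.6% and 33.0% of 10009 genes were. The 9 members lower past the threshold in both were C3, C5, CFI, F10, F11, KNG1, MASP1, SERPIND1 and SERPINF2 (2.99% of genes), and CD55 was the 1 member higher past it in both (1.65% of genes). For CD59 the contrasts had opposite signs, -0.25 against control and 1.37 against NaB. The combination against Cur and Pip, in which NaB was added, had 1 member past the threshold in each direction (12.7% of all genes in either direction), CPB2 higher and F7 lower, and 0 of 32 listed in both libraries (4.62% of such genes).

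**Figure D4:**
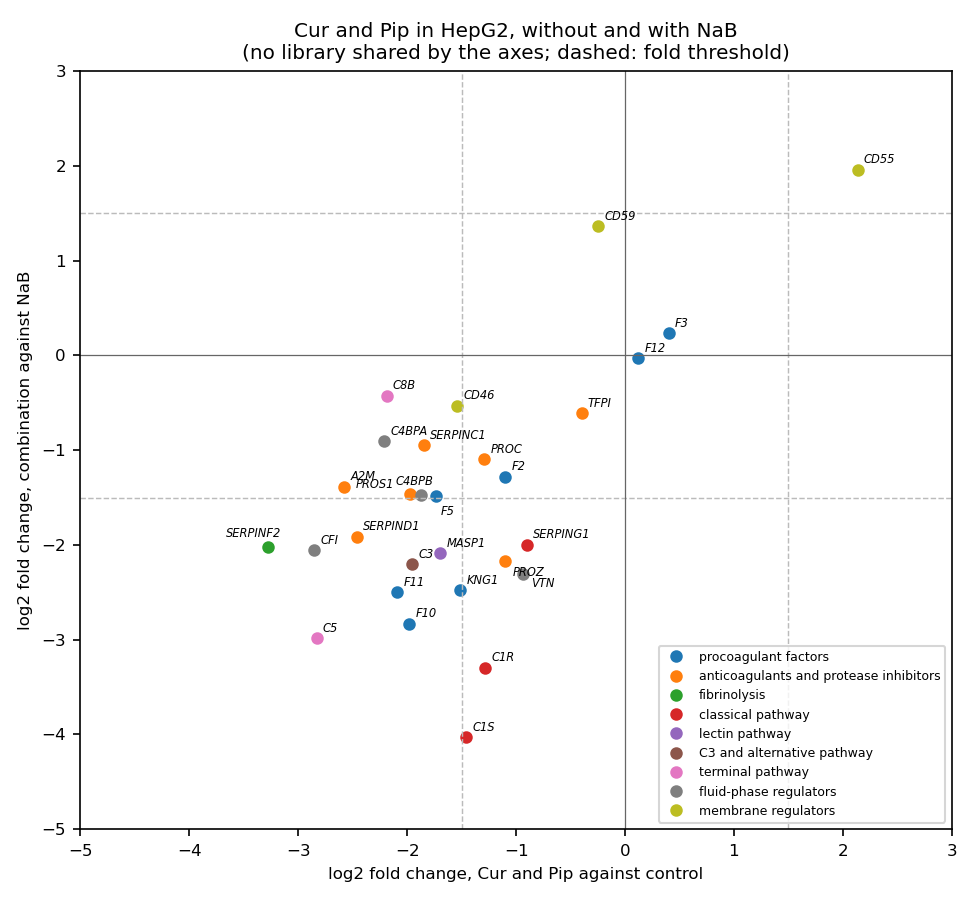
Log2 difference of FPKM + 1 for the 29 members that every HepG2 library listed, Cur and Pip against control (horizontal) and the combination against NaB (vertical), coloured by role, with dashed lines at 1.5 and -1.5. Most members lie in the lower left, 25 with both values below 0, and CD55 lies alone in the upper right beyond both lines.

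Beyond the 43 members, 49 other genes of coagulation, fibrinolysis and complement were listed, of which 27 were measured in HepG2. After Cur and Pip 12 of these were lower past the threshold and 5 higher, after the combination 10 and 6, and after NaB 5 and 0. Over all genes the shares were 10.2% and 9.01%, 11.5% and 8.07%, and 5.10% and 4.76%. Among those listed in both libraries 9 of 23 were lower and 5 higher with Cur and Pip, 6 and 5 of 21 with the combination, and 3 and 0 of 24 with NaB. The fibrinogen chains, the substrate of thrombin, went the way of the liver-made members: FGA stood at 276, 283, 31.6 and 99.9 FPKM in the control, NaB, Cur and Pip, and combination libraries, and FGG at 415, 463, 67.5 and 120.2 FPKM. SERPINA5, the protein C inhibitor, stood at 380.1, 182, 39.9 and 46.0 FPKM. Among the 5 genes higher with Cur and Pip, PLAUR, the urokinase receptor, stood at 1.97, 1.23, 18.8 and 17.1 FPKM, F2RL1, a protease-activated receptor, at 24.8, 20.5, 104 and 208 FPKM, and PROCR, the endothelial protein C receptor, at 0.814, 1.28, 7.49 and 5.77 FPKM. TFPI2, a protease inhibitor related to TFPI and another of the 5, stood at 3.25, 2.16, 15.2 and 12.6 FPKM, whereas PLAU, urokinase itself, stood at 20.5, 25.2, 3.30 and 6.19 FPKM.

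A fit with limma over the 4 HepG2 libraries, with NaB and with Cur and Pip as additive terms, was added after the data were seen and leaves 1 residual degree of freedom, so its spread comes mainly from all genes together. Over the 10009 genes listed in all 4 libraries 21 of 29 members passed an adjusted p of 0.05 for Cur and Pip, 20 lower and CD55 higher, where 6.87% of genes were called lower and 4.36% higher. The estimate was -2.91 ± 0.35 (SE, limma adjusted p = 0.0015) for C5, -2.65 ± 0.40 (limma adjusted p = 0.0039) for SERPINF2, -2.08 ± 0.35 (limma adjusted p = 0.0061) for C3 and 2.05 ± 0.35 (limma adjusted p = 0.0063) for CD55. PROC (-1.19 ± 0.35, limma adjusted p = 0.056), F2 (-1.19 ± 0.35, limma adjusted p = 0.057), C8B, CD46, TFPI, CD59, F3 and F12 did not pass. For NaB 0 members passed, and 0 had an unadjusted p under 0.05. Over the 13475 genes filtered on FPKM alone, however, 0 of 37 members and 0 of all genes passed for Cur and Pip, with 25 at an unadjusted p under 0.05 (14.7% of genes), so the calls rest on the choice of genes tested.

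The question of a difference shared by both lines was put to limma over all 8 libraries, with line as a covariate. It called 0 of 37 members for NaB, Cur and Pip, and the combination, where 0, 0.0258% and 0.0709% of 15510 genes were called, with 2, 5 and 5 members at an unadjusted p under 0.05 (4.66%, 5.91% and 10.6% of genes). C3 with the combination came nearest, at -2.10 ± 0.43 (SE, limma adjusted p = 0.41). A count of 0 from this fit does not show that the members were level.

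In the libraries labelled Hep3B 16 members were measured among 13387 genes. The most abundant in the control were CD55 at 268, 475, 342 and 456 FPKM in the order control, NaB, Cur and Pip, and combination, C4BPB at 190.1, 364, 130.2 and 157 FPKM, CD46 at 188, 198, 109 and 89.3 FPKM, and C3 at 113, 56.3, 37.2 and 27.6 FPKM. CD55 and CD46, both on the membrane, thus exceeded C3 in each library, and F2, F5, F7, F10, F11, SERPINC1 and SERPIND1 had no assigned transcript in any of these 4 libraries. In the control C1R and C1S stood at 77.8 and 96.0 FPKM, and they stood at 15.0 and 22.4 with NaB, 28.9 and 55.7 with Cur and Pip, and 14.5 and 24.8 with the combination. All 3 treated libraries were below the control in both genes. F3, tissue factor, stood at 8.27, 57.7, 18.5 and 32.2 FPKM, with the control the lowest and NaB the highest (2.66 with NaB, 1.84 with the combination). PROS1 stood at 30.2, 8.59, 20.2 and 5.58 FPKM, low in both libraries with NaB.

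NaB against control in these libraries had 5 members lower past the threshold (C1R, C1S, C5, C4BPA and PROS1) and 1 higher (F3), where 7.07% and 5.02% of all genes were. Cur and Pip had 3 lower (C3, C5 and VTN) and 0 higher, where 4.01% and 6.55% were. The combination had 7 lower and 1 higher, where 8.21% and 6.87% were, with C5 (-2.45), C1R (-2.34), PROS1 (-2.24) and C3 (-1.99) the most negative, followed by C1S, VTN and CFB. C5, at 4.48 FPKM in the control, had no assigned transcript with NaB and with the combination. C3 was below its own control with Cur and Pip in both lines, by -1.96 in HepG2 and -1.57 in the line labelled Hep3B. The fibroblast markers in these libraries summed to 305, 86.0, 61.1 and 38.9 FPKM in the order control, NaB, Cur and Pip, and combination. DCN and LUM made up most of each sum. The sum was highest in the control, as C1R, C1S and C3 were, and the part of these markers in those results was not tested.

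**Figure D5:**
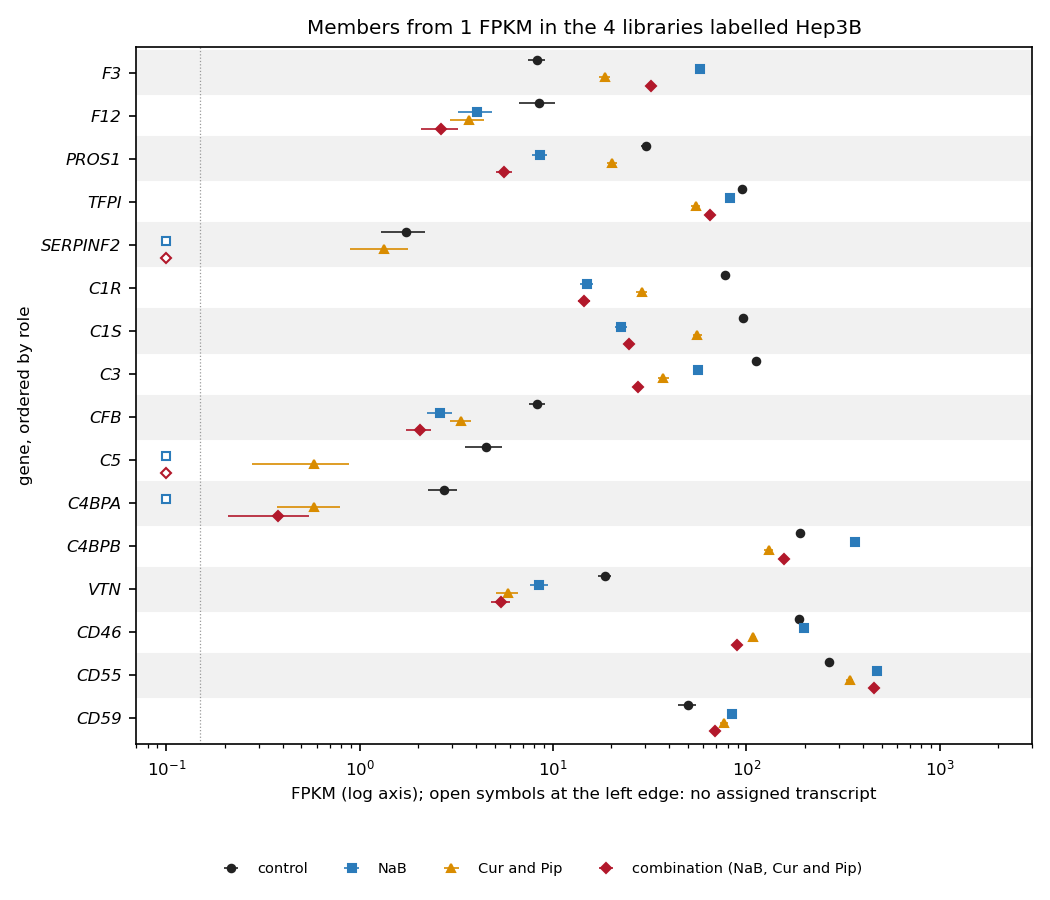
FPKM (log axis) of the 16 members that reached 1 FPKM in 1 or more libraries labelled Hep3B, ordered by role, with 95% Cufflinks intervals of 1 library and open symbols for no assigned transcript. The treated symbols of C1R, C1S, C3 and VTN lie to the left of the control, and those of F3, CD55 and CD59 lie to the right.

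Between the untreated lines 25 of 35 measured members were higher in HepG2 past the threshold and 4 lower, where 13.7% and 16.9% of 13085 genes were. Among 19 members listed in both controls 9 were higher and 4 lower (7.28% and 9.92% of such genes). A2M differed by 9.71 on the log2 scale, at 1436 against 0.712 FPKM, CFI by 6.46, SERPINF2 by 6.01, CFB by 4.27 and C3 by 2.25. The 4 lower in HepG2 were CD55 (-5.04), C1R (-2.79), C4BPB (-1.89) and F12 (-1.53). TFPI, at 94.1 and 94.9 FPKM, differed by -0.01, the smallest difference of the members named here.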

How the data were processed

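RNA-seq data of 8 libraries were analysed, 1 per condition and line. According to the methods the authors aligned reads to GRCh38 by STAR and built transcripts per library in Cufflinks. FastQC and Cuffdiff appear as well in the submitters' processing notes, and tool versions are not given in the sources here. For every built transcript the authors deposited an FPKM, its 95% interval and its coverage. The authors' merged annotation and Cuffdiff results were not used here, and no counts were read, so no count test was run.

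Each transcript was assigned with bedtools 2.31.1 (Python 3.11.15) to the GENCODE 44 gene on its strand with no less than 50% of its exonic bases, and FPKM was summed per gene. A transcript that runs across neighbours counts for 1 of them alone, and a gene without an assigned transcript counts as 0. Differences are log2 of (FPKM + 1) ratios over genes from 1 FPKM in 1 or more libraries of the line, called past the threshold above 1.5 in size. Across both lines and within HepG2, limma 3.58.1 (R 4.3.3) was run on log2(FPKM + 1) with two-sided tests and Benjamini-Hochberg adjustment at 0.05.

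The fragments behind each library, estimated from the deposited coverage and length of transcripts from 300 bases, numbered 25.6 to 35.7 M. The HepG2 control stood apart in shorter transcripts. They held 99.8% of its summed deposited FPKM, against 7.05% to 21.5% in the other libraries. With transcripts under 300 bases left out, 0 of the 42 single member differences past the threshold in HepG2 fell inside it. For 99 HepG2 member values from 5 FPKM the intervals reached 2.72% to 18.6% to either side. For a gene with several transcripts the half-widths were combined as the root of their summed squares, which takes the transcript errors as independent. These intervals cover estimation in 1 library only. Where nothing says that libraries came from separate cultures, p-values measure only the spread between these libraries. In the additive HepG2 fit that spread is the departure from additivity of NaB and of Cur with Pip. In the fit over both lines it is the difference between the lines in their response to treatment. Both are moderated by the spread over all genes, and neither is a spread between repeats of a condition.

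The members, the lists by role, the other pathway genes and the markers were chosen with earlier results of these data known. Members shown in full reached 5 FPKM in HepG2, had an assigned transcript in all 4 HepG2 libraries and passed the threshold in 1 or more comparisons, and the others are given more briefly. Other pathway genes were named from those past the threshold in a HepG2 comparison with 5 FPKM in 1 library and transcripts in both. Scripts were tested on simulated data. There limma over both lines recovered 0 of 100 genes changed by 1.5 on the log2 scale and 0 of 100 changed by 3. The additive HepG2 fit over genes filtered on FPKM alone also recovered 0 of 100 at each size. Counts of 0 from these fits therefore do not show that members were level. Over genes listed in all 4 libraries the additive fit recovered 85 and 100 of 100, with 32 false calls. Alternatives covered the pseudocount, filters, scaling, transcript length and apportioning of depth over annotated exons, and left-out libraries for limma. Some items among the listed genes and motifs are not reported here.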

Additional observations from a re-analysis of the deposited data

Results flagged for a closer look

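C1R and C1S, the paired proteases of the C1 complex, moved in opposite directions in the 2 lines with NaB given without Cur and Pip. C1R differed from its own control by 1.35 on the log2 scale in HepG2 and by -2.30 in the libraries labelled Hep3B. C1S differed by 1.28 and -2.05, and the HepG2 differences of both genes lay inside the threshold. Where NaB was added to Cur and Pip, both genes were lower in both lines than with Cur and Pip without NaB. The additive HepG2 fit gave NaB estimates of 0.34 for C1R and -0.01 for C1S. With 1 library per condition the difference between lines was not tested. The NaB dose also differed, 2500 µM in HepG2 and 1700 µM in the cells labelled Hep3B, and the line and the dose cannot be told apart. The genes are neighbours on opposite strands of chromosome 12.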

How the results depend on the processing

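Of the HepG2 counts of members past the threshold with NaB (6 in either direction), a pseudocount of 5 left 3, only genes listed in every library left 2, apportioned depth left 1 and leaving out transcripts that span genes left 3. A pseudocount of 5 left 13 of 22 with Cur and Pip and 14 of 24 with the combination in HepG2. In the libraries labelled Hep3B it left 3 of 6 with NaB, 0 of 3 with Cur and Pip and 4 of 8 with the combination, where leaving out spanning transcripts left 5. Between the controls 13 of 29 remained with genes listed in every library. The additive limma fit for Cur and Pip, added after the data were seen, went from 0 to 21 members with genes listed in all 4 libraries. The other 108 planned and 7 added values, all of them counts, were unchanged or stayed within 1.5 times. The 7 added values and all planned values from limma over both lines were counts of 0 against 0, which say nothing on stability. The cause of the differences was not tested. Of 42 single member differences past the threshold in HepG2, 14 fell inside it with a pseudocount of 5, 7 with apportioned depth, 7 with the largest transcript alone and 2 with another scaling, KNG1 with Cur and Pip (-1.49) and VTN with the combination (-1.49). Leaving out each library in turn gave 0 to 0 members called by limma over both lines, which says nothing on stability, since this fit made no call for a member with all 8 libraries either and has few residual degrees of freedom. Scaling by the median of ratios shifted the libraries labelled Hep3B by -0.19 with NaB and -0.11 with the combination on the log2 scale, close to the -0.20 of TFPI with NaB, and the HepG2 libraries by at most 0.04 in size. No paired analysis was possible because each condition has 1 library and the labels carry no replicate numbers. Levels under 1 FPKM and genes that were not assembled limit any statement on F9, KLKB1, F13B, PLG, C4A and C4B.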

Other observations

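The hepatocyte transcription factors HNF4A and CEBPA, chosen from the markers after their values were seen, stood lower in the HepG2 libraries with Cur and Pip. HNF4A stood at 70.7, 89.0, 26.6 and 25.3 FPKM in the control, NaB, Cur and Pip, and combination libraries and CEBPA at 69.8, 92.6, 25.5 and 29.0 FPKM. For HNF4A and CEBPA the NaB library was the highest of the 4. TTR, the transthyretin secreted by hepatocytes, stood at 251, 96.7, 103 and 70.5 FPKM, low in each treated library. In the libraries labelled Hep3B CEBPA stood at 2.09, 1.44, 2.69 and 4.99 FPKM.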
